A study of Mus musculus with 15 samples.

Results

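Cholesterol handling in alveolar macrophages was followed through 9 genes: the liver X receptor (LXR) genes Nr1h3 and Nr1h2, the efflux and receptor-control genes Abca1, Abcg1, Apoe and Mylip, the lysosomal export genes Npc1 and Npc2, and the cholesterol esterification gene Soat1. The genes were taken from the count table by symbol, 1 Ensembl identifier each. All 9 were present among the 40510 genes of the table, and all 9 were among the 13284 genes with enough counts to be tested. RNA sequencing libraries came from macrophages sorted from the lavage fluid of untreated C57BL/6 mice as CD45+ Ly6G- SiglecF+ CD11c+ and then split by surface CD11b. Knockout (KO) mice carry a disrupted Cybb, the gene of the NOX2 subunit of the phagocyte NADPH oxidase, and are labelled as a model of chronic granulomatous disease. The 5 groups were CD11b-high KO cells at 12 weeks of age, CD11b-low KO cells at 12 weeks, CD11b-low wild-type (WT) cells at 12 weeks, CD11b-low KO cells at 4 weeks and CD11b-low WT cells at 4 weeks. Each held 3 libraries, made from about 50000 cells that were pooled from 2 to 3 mice. No CD11b-high WT group was among the samples, so gate and genotype cannot be told apart between CD11b-high KO and WT cells. All WT cells below are CD11b-low.

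Macrophages take up cholesterol in lipoproteins, dying cells and, in the airspace, surfactant. Cholesterol released in the lysosome is passed by NPC2 in the lumen to NPC1 in the membrane, and from there it reaches the rest of the cell. The surplus is stored as ester droplets by SOAT1 (also called ACAT1) or pumped out by ABCA1, which loads lipid-poor apolipoproteins, and by ABCG1, which supplies HDL. Oxysterols, made when cholesterol is high, activate LXR alpha (Nr1h3) and LXR beta (Nr1h2). These act with RXR partners to raise Abca1, Abcg1 and Apoe, and to raise Mylip, whose product IDOL marks lipoprotein receptors for degradation. Loss of Abcg1 in mice is known to fill alveolar macrophages with lipid.

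Cybb, the targeted gene, stood at 129 to 221 CPM in the 9 KO libraries and at 899 to 2319 CPM in the 6 WT libraries. CPM stands for counts per 1000000 counts of a library, after TMM adjustment between libraries. The 15 libraries held 22856331 to 36458893 counts. The lowest count of any of the 9 genes in a library was 100, for Apoe, and the highest was 323807, for Abcg1. Markers of alveolar macrophages (10 genes, Siglecf, Itgax and Marco among them) were all detected in every group, with summed levels of 31238 to 68720 CPM. Siglecf and Itgax encode the sort markers SiglecF and CD11c, so their detection follows from the sort. Replicate 1 of the 12-week WT cells stood apart and is called WT replicate 1 below. Among 7136 genes that reached 10 CPM in at least 1 library of its group, 25.9% lay more than 2-fold from both other replicates. In the other 14 libraries, by the same rule, the share was 0.0876% to 6.39%. Named genes called against 12-week WT cells are therefore given with and without it.

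**Figure D1:**
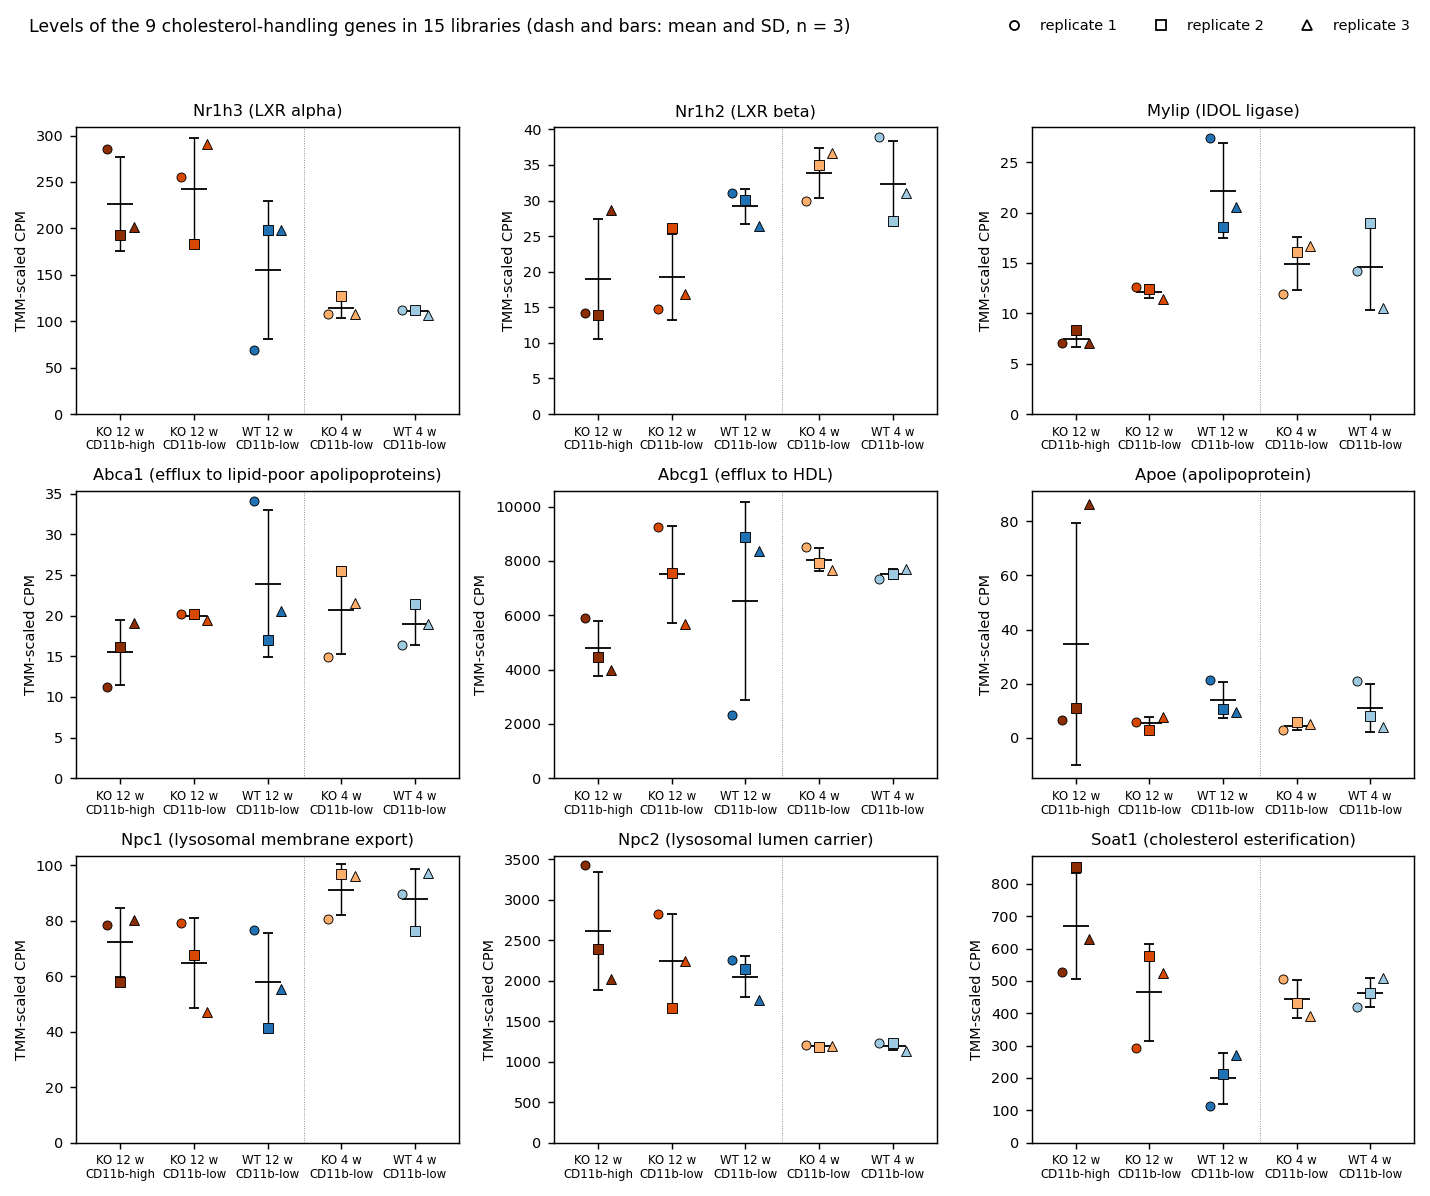
TMM-scaled CPM (vertical axis, from 0 except for Apoe, where the SD bar reaches below 0) of the 9 genes in each of the 15 libraries, by group. Symbols mark the replicates, dashes the means and bars the SD of 3 libraries. Soat1 is lowest in WT cells at 12 weeks, at 114 to 271 CPM, and Mylip is lowest in CD11b-high KO cells, at 7.00 to 8.39 CPM.

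The clearest differences among the 9 genes were in Soat1 and Mylip, and they lay at 12 weeks. Soat1 averaged 669 ± 165 CPM in CD11b-high KO cells, 464 ± 151 CPM in CD11b-low KO cells and 199 ± 79.2 CPM in WT cells (SD, n = 3 each). Mylip averaged 7.47 ± 0.798, 12.1 ± 0.662 and 22.2 ± 4.67 CPM in CD11b-high KO, CD11b-low KO and WT cells. At 4 weeks none of the 9 genes passed the test between KO and WT cells. At 12 against 4 weeks Npc2 rose in both genotypes, Nr1h3 rose in KO cells and Soat1 fell in WT cells. Abca1, Abcg1, Apoe, Nr1h2 and Npc1 passed in none of the 7 comparisons in the fit over all libraries with TMM and the filter on low counts. Some of them passed in alternative fits, given below.

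Levels per kilobase of exon, which allow genes to be compared with each other, differed widely within the set. Abcg1 was the highest, with a median of 1037 CPM per kb over the 15 libraries, and ranked between 24 and 225 (median 49) among 13274 genes. Npc2 followed at a median of 324 CPM per kb, over 5438 bases of annotated exon. The order of these 2 genes may depend on the lengths used. Nr1h3 and Soat1 had medians of 72.6 and 47.2 CPM per kb. Nr1h2, Npc1, Mylip and Apoe had medians of 8.54, 6.93, 3.91 and 3.56 CPM per kb. Abca1, the other main efflux pump, was the lowest at 1.88 CPM per kb and had a median rank of 6593.

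The bases just upstream of 3 of these genes are shown because LXR binds with RXR to a direct repeat spaced by 4 bases, a site type known in LXR target promoters, and because Soat1 and Mylip carry the largest changes past the threshold. Sequences are from RefSeq on GRCm38.p6, which had entries for 7 of the 9 genes. Each runs 5′ to 3′ on the gene's own strand over the 250 bases before the start: chr4:53159896-53160145 on the minus strand for Abca1, chr1:156474329-156474578 on the minus strand for Soat1 and chr13:45389492-45389741 on the plus strand for Mylip.
Abca1: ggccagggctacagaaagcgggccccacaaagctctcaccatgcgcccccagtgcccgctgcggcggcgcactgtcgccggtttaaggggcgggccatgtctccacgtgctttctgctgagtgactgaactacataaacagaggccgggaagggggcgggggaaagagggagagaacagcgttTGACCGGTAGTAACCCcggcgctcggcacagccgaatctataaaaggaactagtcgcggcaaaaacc
Soat1: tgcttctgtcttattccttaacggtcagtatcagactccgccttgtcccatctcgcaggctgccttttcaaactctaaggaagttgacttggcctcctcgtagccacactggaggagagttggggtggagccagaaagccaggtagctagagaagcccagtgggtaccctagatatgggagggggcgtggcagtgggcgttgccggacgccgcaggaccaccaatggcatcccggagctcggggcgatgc
Mylip: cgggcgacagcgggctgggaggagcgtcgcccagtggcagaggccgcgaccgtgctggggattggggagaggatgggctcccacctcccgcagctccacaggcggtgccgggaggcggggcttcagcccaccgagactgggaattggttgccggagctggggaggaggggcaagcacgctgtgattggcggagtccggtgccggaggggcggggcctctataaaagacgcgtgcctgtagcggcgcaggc
The motif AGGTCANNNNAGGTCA was searched on both strands with at most 3 mismatches in its 12 fixed letters. Capitals in Abca1 mark its match, which reads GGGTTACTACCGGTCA on the opposite strand and ends 52 bases before the start. Such a match was present in 18.5% of 32851 promoters. The 7 genes had 10 promoter entries, of which 1, that of Abca1, held a match, so the set does not stand above that share. Whether LXR binds at this match was not tested. The other 6 genes, Soat1 and Mylip included, held none in this window.

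LXR alpha was the more abundant of the 2 receptor transcripts in every library. Nr1h3 (ENSMUSG00000002108, chr2:91184061-91202834; coordinates here are GENCODE's on GRCm38) stood at 285, 192 and 202 CPM in CD11b-high KO cells, at 255, 183 and 291 CPM in CD11b-low KO cells and at 69.5, 198 and 198 CPM in WT cells at 12 weeks. At 4 weeks it stood at 108, 127 and 108 CPM in KO cells and at 113, 113 and 107 CPM in WT cells. All 6 KO libraries of 12 weeks lay above all 4-week libraries, and so did WT replicates 2 and 3, while WT replicate 1 was the lowest of all 15. In KO cells Nr1h3 rose with age by 1.09 on the log2 scale (SE 0.32, adjusted p = 0.0468). That call was lost when any 1 library other than replicate 2 at 12 weeks was left out, at log2 fold changes of 0.94 to 1.17 and adjusted p-values of 0.123 to 0.174. In WT cells the log2 fold change with age was 0.49 (SE 0.31, adjusted p = 0.306), and without WT replicate 1 it was 0.84 with an adjusted p of 0.0145. Between CD11b-low KO and WT cells at 12 weeks it was 0.65 (SE 0.31, adjusted p = 0.255), and 0.30 without WT replicate 1 (adjusted p = 0.513). The exons of Nr1h3 share 34 bases with Gm13783.

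Nr1h2 (ENSMUSG00000060601, chr7:44549616-44553951), the gene of the more widely expressed receptor, passed in no comparison in the fit over all libraries with TMM and the filter on low counts. At 12 weeks it stood at 14.3, 13.9 and 28.6 CPM in CD11b-high KO cells, at 14.7, 26.1 and 16.9 CPM in CD11b-low KO cells and at 31.0, 30.1 and 26.4 CPM in WT cells. The 4-week libraries stood at 30.0, 35.0 and 36.6 CPM in KO cells and at 38.9, 27.2 and 31.1 CPM in WT cells. The CD11b-low KO libraries of 12 weeks lay below all WT libraries and below all 4-week KO libraries. Neither difference passed: the log2 fold change was -0.60 against WT cells (SE 0.29, adjusted p = 0.248; -0.55 without WT replicate 1) and -0.82 against 4-week KO cells (SE 0.29, adjusted p = 0.0886). The age difference in KO cells did pass without KO replicate 2 of 12 weeks, at -1.09 and an adjusted p of 0.0427. With library totals in place of TMM that difference passed at -1.13 (adjusted p = 0.0388). With only the compared groups in the fit it passed at -0.81 (adjusted p = 0.0494). Nr1h2 was also past for CD11b-high KO over WT cells without CD11b-high replicate 3, at -1.05 (adjusted p = 0.0227), against -0.62 with it (adjusted p = 0.158).

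The ratio of Nr1h3 to Nr1h2 counts within a library does not depend on scaling between libraries. It was 20.0, 13.8 and 7.04 in CD11b-high KO cells, 17.3, 6.99 and 17.2 in CD11b-low KO cells and 2.24, 6.56 and 7.50 in WT cells at 12 weeks. In the younger mice the ratio was 3.60, 3.64 and 2.94 in KO cells and 2.89, 4.15 and 3.44 in WT cells. Apart from WT replicate 1, every 12-week library had a higher ratio than every 4-week library. Replicate 3 of the CD11b-high KO cells and replicate 2 of the CD11b-low KO cells lay within the range of WT replicates 2 and 3. These ratios are a description, without a test.

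**Figure D2:**
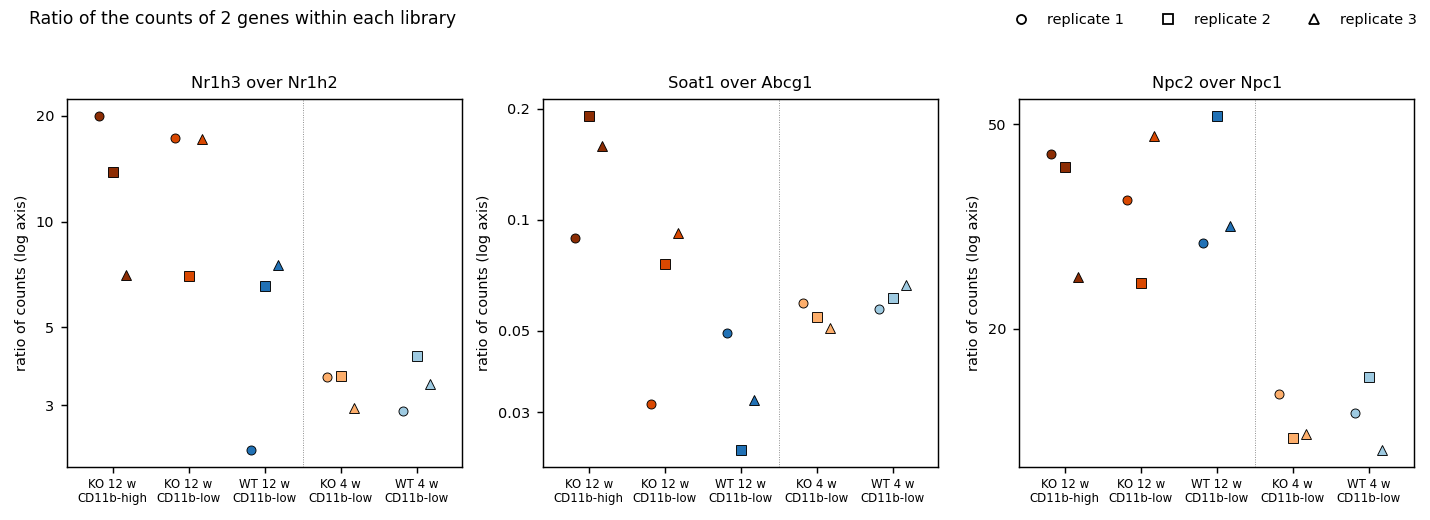
Ratio of the counts of 2 genes within each of the 15 libraries (vertical axes, log scale) for Nr1h3 over Nr1h2, Soat1 over Abcg1 and Npc2 over Npc1, by group and replicate. The ratio of Npc2 to Npc1 is 24.5 to 51.9 at 12 weeks and 11.6 to 16.1 at 4 weeks, without overlap.

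Mylip (ENSMUSG00000038175, chr13:45389742-45412022), the ligase gene, had its lowest values in CD11b-high KO cells. It stood at 7.01, 8.39 and 7.00 CPM there, at 12.6, 12.4 and 11.4 CPM in CD11b-low KO cells and at 27.5, 18.5 and 20.6 CPM in WT cells at 12 weeks. The 3 groups did not overlap. At 4 weeks the levels were 11.9, 16.1 and 16.7 CPM in KO cells and 14.2, 19.0 and 10.6 CPM in WT cells, which overlap. In CD11b-high KO cells Mylip fell 2.97-fold below WT cells (log2 fold change -1.57, SE 0.26, adjusted p = 5.78e-04), and this passed in all 6 fits that left out 1 library. The value without WT replicate 1 was -1.40 (adjusted p = 0.00168). In CD11b-low KO cells the log2 fold change against WT cells was -0.87 (SE 0.25) with an adjusted p of 0.0712, which missed the threshold. DESeq2 gave it an adjusted p of 0.0209, and without WT replicate 1 edgeR gave -0.69 and an adjusted p of 0.166. Between CD11b-high and CD11b-low KO cells it was -0.70 (SE 0.25, adjusted p = 0.294).

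The efflux pump Abca1 (ENSMUSG00000015243, chr4:53030787-53159895) had group means between 15.5 and 23.9 CPM. At 12 weeks it stood at 11.2, 16.2 and 19.1 CPM in CD11b-high KO cells, at 20.2, 20.2 and 19.5 CPM in CD11b-low KO cells and at 34.1, 17.0 and 20.5 CPM in WT cells. In 4-week mice Abca1 stood at 14.9, 25.5 and 21.6 CPM in KO cells and at 16.4, 21.5 and 19.0 CPM in WT cells. All neighbouring groups in the order of means overlapped. The highest value was that of WT replicate 1. Between CD11b-low KO and WT cells at 12 weeks the log2 fold change was -0.26 (95% interval -0.85 to 0.34) and 0.09 without that library. The lowest, against WT cells in CD11b-high KO cells, was -0.62 (adjusted p = 0.151), and -0.28 without it.

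Abcg1 (ENSMUSG00000024030, chr17:31057675-31117988) stood at 5913, 4452 and 3970.1 CPM in CD11b-high KO cells, at 9261, 7569 and 5692 CPM in CD11b-low KO cells and at 2316, 8882 and 8360.0 CPM in WT cells at 12 weeks. At 4 weeks it stood between 7683 and 8521 CPM in KO cells and between 7321 and 7691 CPM in WT cells. WT replicate 1 had the lowest value of all, and next to it the CD11b-high libraries were the lowest, replicate 1 of them above replicate 3 of the CD11b-low KO cells. With all libraries the log2 fold change of CD11b-high KO over WT cells was -0.45 (SE 0.36, adjusted p = 0.438). Without WT replicate 1 it was -0.86 and passed, at an adjusted p of 0.0161. Between CD11b-high and CD11b-low KO cells it was -0.65 (95% interval -1.41 to 0.11, adjusted p = 0.602). Between CD11b-low KO and WT cells at 12 weeks the sign turned, at 0.20 with all libraries and -0.20 without WT replicate 1, neither past the threshold.

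Apoe (ENSMUSG00000002985, chr7:19696109-19699188), the apolipoprotein that macrophages secrete with effluxed lipid, was low apart from 1 library. CD11b-high KO replicate 3 held 86.3 CPM, while replicates 1 and 2 of that group held 6.60 and 11.1 CPM. CD11b-low KO cells of 12 weeks held 5.86, 2.98 and 7.60 CPM and WT cells of that age 21.5, 10.7 and 9.59 CPM. At 4 weeks KO cells held 2.87, 5.81 and 5.07 CPM and WT cells 21.0, 8.07 and 4.20 CPM. The log2 fold change between CD11b-high and CD11b-low KO cells was 2.66 (SE 0.84, adjusted p = 0.213), and 0.69 without replicate 3. Against WT cells it was 1.32 (adjusted p = 0.300) and turned to -0.66 without replicate 3, and was 1.77 without WT replicate 1 (adjusted p = 0.265). Without CD11b-high replicate 1, which leaves replicate 3 as 1 library of 2, the difference between the gates passed at 3.15 (adjusted p = 0.0313). Apoe was lower in CD11b-low KO than in WT cells at 12 weeks without overlap, with a fold change of -1.35 on the log2 scale (SE 0.81, adjusted p = 0.359), and -0.89 without WT replicate 1 (adjusted p = 0.681). Without the filter on low counts Apoe passed in 3 of these comparisons at nearly the same log2 fold changes: 2.65 between the gates (adjusted p = 2.44e-12), 1.29 for CD11b-high KO over WT (adjusted p = 0.00136) and -1.36 for CD11b-low KO over WT cells at 12 weeks (adjusted p = 0.00175).

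Of the lysosomal pair, Npc2 passed the test with age and Npc1 did not. Npc2 (ENSMUSG00000021242, chr12:84754562-84773152) stood at 3433, 2390.5 and 2020.3 CPM in CD11b-high KO cells, at 2822, 1662 and 2243 CPM in CD11b-low KO cells and at 2252, 2145 and 1762 CPM in WT cells at 12 weeks. At 4 weeks it stood at 1203, 1186 and 1199.5 CPM in KO cells and at 1233, 1229 and 1132 CPM in WT cells. Every 12-week library lay above every 4-week library. Npc2 rose with age 1.87-fold in KO cells (log2 0.91, SE 0.25, adjusted p = 0.0366) and 1.71-fold in WT cells (log2 0.78, SE 0.25, adjusted p = 0.0383). The KO call was lost in 5 of 6 fits without 1 library, at log2 fold changes of 0.70 to 0.91, and the WT call in 4 of 6, at 0.74 to 0.80. The WT value without WT replicate 1 was 0.71 (adjusted p = 0.0493). With plain library totals in place of TMM both calls were lost, at 0.56 (adjusted p = 0.0943) in KO and 0.55 (adjusted p = 0.0820) in WT cells. That scaling moved the median log2 fold change of all genes with age to -0.356 in KO and -0.26 in WT cells, against -0.022 and -0.026 with TMM.

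Npc1 (ENSMUSG00000024413, on chromosome 18), whose product carries cholesterol through the lysosomal membrane, stood at 78.5, 58.0 and 80.2 CPM in CD11b-high KO cells, at 79.1, 67.8 and 47.2 CPM in CD11b-low KO cells and at 76.7, 41.3 and 55.5 CPM in WT cells at 12 weeks. In 4-week mice Npc1 stood at 80.5, 96.8 and 96.3 CPM in KO cells and at 89.8, 76.2 and 97.4 CPM in WT cells. The log2 fold change with age was -0.50 in KO cells (adjusted p = 0.235), where the groups did not overlap, and -0.60 in WT cells (adjusted p = 0.110). Without WT replicate 1 the WT value was -0.86 and passed at an adjusted p of 0.0218. Within libraries the ratio of Npc2 to Npc1 counts was 25.2 to 43.8 in CD11b-high KO, 24.5 to 47.5 in CD11b-low KO and 29.3 to 51.9 in WT cells at 12 weeks, and 12.3 to 14.9 in KO and 11.6 to 16.1 in WT cells at 4 weeks, so the ages did not overlap. The exons of Npc1 overlap those of Rmc1 on the opposite strand by 511 bases, and the strand setting of the counting was not given, so its counts may include reads of that gene.

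Soat1 (ENSMUSG00000026600, chr1:156424525-156474331), the enzyme gene for cholesterol ester storage, spanned 7.46-fold between its lowest and highest library, more than any of the 9 genes other than Apoe (30.1-fold). It stood at 529, 851 and 629 CPM in CD11b-high KO cells, at 292, 575 and 525 CPM in CD11b-low KO cells and at 114, 211 and 271 CPM in WT cells at 12 weeks. All 6 KO libraries lay above all 3 WT libraries. At 4 weeks it stood at 506, 431 and 390.2 CPM in KO cells and at 419, 462 and 510.2 CPM in WT cells, which overlap each other and the CD11b-low KO cells of 12 weeks. Soat1 rose 2.34-fold in CD11b-low KO over WT cells at 12 weeks (log2 1.22, SE 0.31, adjusted p = 0.0403). The call was lost without WT replicate 1, at 0.95 (adjusted p = 0.0891), without WT replicate 2, at 1.27 (adjusted p = 0.0859), without KO replicate 2, at 1.03 (adjusted p = 0.140), and without KO replicate 3, at 1.13 (adjusted p = 0.101).

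In CD11b-high KO cells Soat1 rose 3.37-fold over WT cells (log2 1.75, SE 0.32, adjusted p = 0.00126). This passed without any 1 of the 6 libraries, and without WT replicate 1 it was 1.47 (adjusted p = 0.00285). Between CD11b-high and CD11b-low KO cells the log2 fold change was 0.53 (95% interval -0.12 to 1.18, adjusted p = 0.635). With age Soat1 fell in WT cells by 1.22 on the log2 scale (SE 0.31, adjusted p = 0.0133), and by 0.94 without WT replicate 1 (adjusted p = 0.0271). Without WT replicate 3 of 4 weeks that call was lost, at -1.15 and an adjusted p of 0.0534. In KO cells the value was 0.07 (95% interval -0.58 to 0.72, adjusted p = 0.923). The difference between the genotypes in this age change, tested as an interaction, was 1.29 (SE 0.44, unadjusted p = 0.00842) and did not pass over all genes, at an adjusted p of 0.346 (1.01 and 0.453 without WT replicate 1).

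Transcripts of a storage gene and an efflux gene can be set against each other within a library, again as a description. Storage and efflux themselves were not measured. The ratio of Soat1 to Abcg1 counts was 0.0894, 0.191 and 0.158 in CD11b-high KO cells, 0.0316, 0.0760 and 0.0923 in CD11b-low KO cells and 0.0493, 0.0238 and 0.0324 in WT cells at 12 weeks. In the younger mice it was 0.0508 to 0.0594 in KO cells and 0.0573 to 0.0663 in WT cells. The CD11b-high KO and WT libraries did not overlap in this ratio, as they did not for Soat1 alone. CD11b-low KO replicate 1 lay within the WT range.

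**Figure D3:**
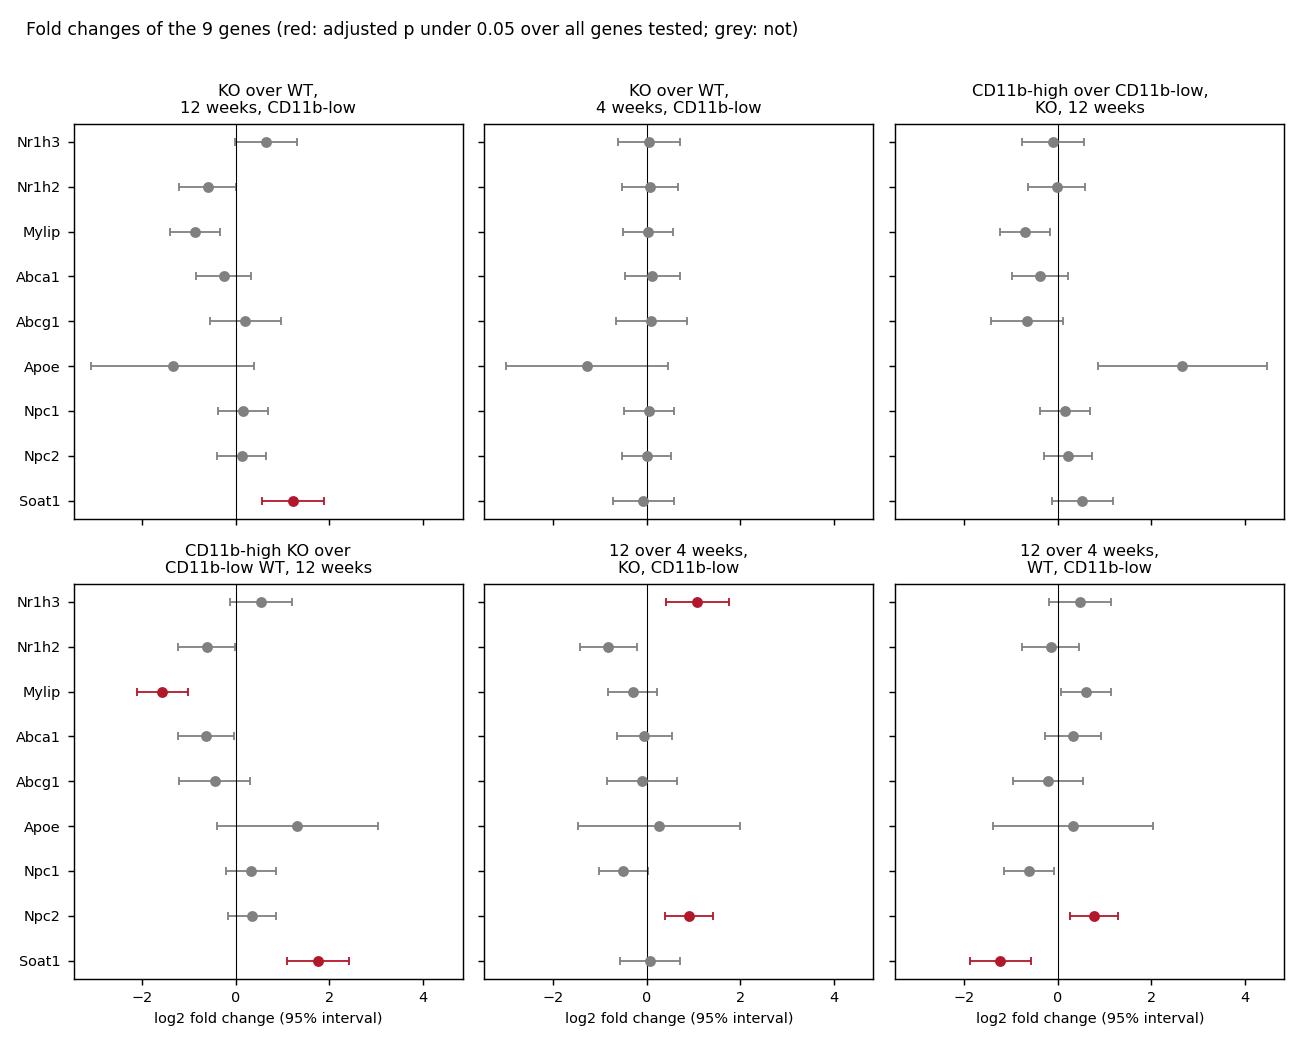
Log2 fold changes (horizontal axis) of the 9 genes with 95% intervals in 6 comparisons, from the fit over 15 libraries. Red marks an adjusted p under 0.05 over all genes tested. No gene is red for KO over WT cells at 4 weeks or for CD11b-high over CD11b-low KO cells, and Soat1 (1.75) and Mylip (-1.57) lie farthest on either side among the red points.

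Counts of the 9 genes can be read against the share of all 13284 genes. In CD11b-low KO over WT cells at 12 weeks 1 of 9 passed, against 3.10% of all genes, and 4 of 9 had groups that did not overlap, against 17.8%. The median log2 fold change of the 9 was 0.127, against -0.0422 for all genes. Without WT replicate 1 none of the 9 passed. At 4 weeks 0 of 9 passed, against 0.0979% of all genes (13 genes), and 0 of 9 did not overlap, against 8.63%. None of the 9 reached even an unadjusted p of 0.05 there. DESeq2 also called none of them, and without the filter on low counts edgeR called Apoe, at -1.25 (adjusted p = 0.0389). The widest 95% interval at 4 weeks was that of Apoe, -3.01 to 0.46, and those of the other 8 reached from -0.71 to 0.86 at most.

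In CD11b-high over CD11b-low KO cells 0 of 9 passed, against 0.693% of all genes (92 genes; Apoe passed without the low-count filter), and 2 of 9, Abca1 and Mylip, did not overlap, against 13.8%. An unadjusted p under 0.05 was reached by 2 of them, Apoe and Mylip, and DESeq2 called 0. Deviations of libraries with the same replicate number correlated at 0.563, 0.474 and 0.15 in these 2 groups, which does not establish pairs. With the numbers taken as pairs in a block 252 genes passed in place of 92, again with 0 of the 9. In CD11b-high KO over WT cells 2 of 9 passed, against 14.8% of all genes, and 2 of 9 did not overlap, against 26.4%. The median of the 9 was 0.321, against -0.0112 for all genes. When WT replicate 1 was left out, Abcg1 joined Soat1 and Mylip.

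With age 2 of 9 passed in KO cells, against 6.89% of all genes, and 4 of 9 did not overlap, against 38.6%. In WT cells 2 of 9 passed, against 17.2%, and 2 of 9 did not overlap, against 34.3%. There were 4 in WT cells without WT replicate 1. The interaction of genotype and age called 0 of 9, against 0.248% of all genes (33 genes). Soat1 and Mylip had an unadjusted p under 0.05 in it, and DESeq2 called 0. These shares are for changes in either direction. The comparisons share the 12-week KO or WT libraries, so their values for 1 gene are not independent.

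Genes that act beside the 9 were read from 6 lists of 51 genes, of which 44 were tested. In CD11b-low KO over WT cells at 12 weeks 3 of 44 rose and 0 fell, against 3.10% of all genes changed, with a median log2 fold change of 0.0361. Ch25h, which makes the LXR ligand 25-hydroxycholesterol, averaged 195 ± 66.8 CPM in KO and 74.7 ± 20.1 CPM in WT cells (log2 1.38, SE 0.31, adjusted p = 0.0213). Scd1, a fatty acid desaturase and LXR target, averaged 17.9 ± 3.42 and 7.67 ± 1.13 CPM in KO and WT cells (log2 1.22, SE 0.33, adjusted p = 0.0498). The libraries of KO and WT cells did not overlap for either. The Scd1 call was lost whichever of the 6 libraries was left out, at log2 fold changes of 1.06 to 1.35 and adjusted p-values of 0.0676 to 0.119, with 0.0676 without WT replicate 1. It was also lost with DESeq2 size factors (0.0505), with library totals (0.0723) and with only the compared groups in the fit (0.121). Ch25h was lost without WT replicate 1 (log2 1.22, adjusted p = 0.0728), WT replicate 2 (0.0700) or KO replicate 1 (0.0701), and with only the compared groups (0.114). Without WT replicate 2 no companion gene passed, and without KO replicate 1 or 2 only 1 did. At 4 weeks none of the 44 passed, by edgeR or DESeq2.

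**Figure D4:**
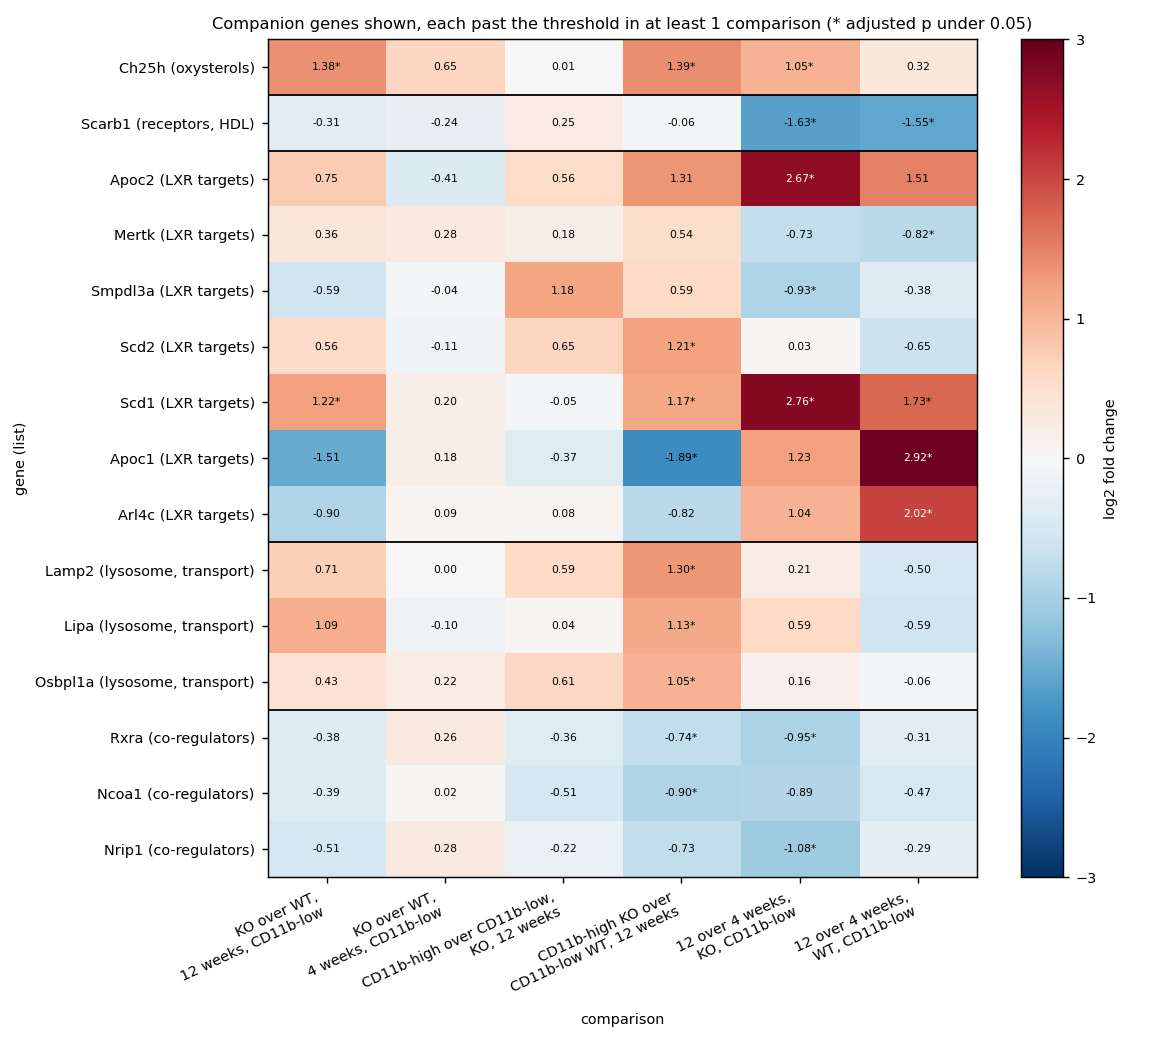
Log2 fold changes of 15 companion genes that passed in at least 1 of 6 comparisons (columns). Rows are genes grouped by list, colour runs from -3 (blue) to 3 (red), and an asterisk marks an adjusted p under 0.05 over all genes tested. Scd1 is 1.22 in CD11b-low KO over WT cells at 12 weeks, 2.76 in KO cells with age and 1.73 in WT cells with age.

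CD11b-high KO cells differed from WT cells in 11 of the 44, with 7 higher and 4 lower, against 14.8% of all genes. Ch25h averaged 195 ± 45.8 CPM in CD11b-high KO and 74.7 ± 20.1 CPM in WT cells (log2 1.39, adjusted p = 0.00667). Of 11 genes for lysosomal release and sterol transport 3 rose and 0 fell: the lysosomal membrane protein gene Lamp2 (log2 1.30), the acid lipase gene Lipa (log2 1.13), which frees cholesterol from its esters, and the sterol-binding protein gene Osbpl1a (log2 1.05). Of 14 tested LXR targets Scd1 and Scd2 rose and Apoc1, an apolipoprotein gene beside Apoe, fell, at 26.6 ± 10.1 CPM in CD11b-high KO against 98.4 ± 56.0 CPM in WT cells (log2 -1.89, adjusted p = 0.00555). Of 7 receptor partners and co-regulators 3 fell, among them the LXR partner Rxra (log2 -0.74) and the coactivator gene Ncoa1 (log2 -0.90). Both of these calls were lost without WT replicate 1, at adjusted p-values of 0.116 for Rxra and 0.0689 for Ncoa1. Each of them was also lost without CD11b-high replicate 2 or 3 or WT replicate 3, and Rxra without CD11b-high replicate 1 as well. Rxra thus passed in 1 of 6 fits that left out 1 library and Ncoa1 in 2 of 6. With other alternatives included, Rxra passed in 2 of 12 and Ncoa1 in 7 of 12. Without WT replicate 1 there were 16 companion genes past the threshold, without CD11b-high replicate 1 there were 7 and without replicate 2 there were 5. Lipa was lost without CD11b-high replicate 1 or 2, Osbpl1a without CD11b-high replicate 1 or WT replicate 2, Scd2 without CD11b-high replicate 2 or WT replicate 2, and Scd1 without CD11b-high replicate 1 or 2 or WT replicate 2 or 3. Ch25h, Lamp2 and Apoc1 passed without any 1 of the 6 libraries. Without WT replicate 1 the log2 fold changes were 1.22 for Ch25h, 1.03 for Lamp2, 0.73 for Lipa, 1.06 for Osbpl1a, 1.29 for Scd1, 1.51 for Scd2 and -1.33 for Apoc1, all past the threshold. None of the 6 genes for ester storage and hydrolysis passed in any of the 7 comparisons by edgeR. Between CD11b-high and CD11b-low KO cells none of the 44 passed by edgeR and 1 by DESeq2.

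With age Scd1 rose in both genotypes, to 17.9 ± 3.42 CPM against 2.65 ± 0.978 CPM in KO cells (log2 2.76, adjusted p = 1.72e-04) and to 7.67 ± 1.13 CPM against 2.32 ± 1.03 CPM in WT cells (log2 1.73, adjusted p = 0.00458). Scarb1, the HDL receptor SR-BI, fell in both, by 1.63 on the log2 scale in KO and by 1.55 in WT cells (adjusted p = 0.0021 and 0.00368). In KO cells 3 of 44 rose with age (Scd1, Apoc2 and Ch25h) and 4 fell (Scarb1, Rxra, Nrip1 and Smpdl3a), against 6.89% of all genes changed. Ch25h (adjusted p = 0.0499) and Smpdl3a (adjusted p = 0.0491) were near the threshold. Of 6 fits that left out 1 library, Ch25h passed in 1, Smpdl3a in 0, and Rxra and Nrip1 in 2 each. In WT cells 3 rose (Scd1, Apoc1 and Arl4c) and 3 fell, Scarb1 and Mertk among them. These 6 of 44 are a smaller share than the 17.2% of all genes. Without WT replicate 1 the WT values were 1.61 for Scd1, 2.36 for Apoc1, -1.73 for Scarb1 and -1.01 for Mertk, all past the threshold. Without KO replicate 2 or 3 of 4 weeks, or KO replicate 1 or 3 of 12 weeks, only 3 of the 7 KO calls passed. Scarb1, Apoc2, Scd1 and Apoc1 passed with age without any 1 library in the genotypes named. Arl4c was lost without WT replicate 1 of 12 weeks, at an adjusted p of 0.0637, or WT replicate 2 or 3 of 4 weeks, and Mertk without WT replicate 2 of 12 weeks or WT replicate 1 or 3 of 4 weeks. The interaction of genotype and age called none of the 44 by edgeR and 1 by DESeq2. Over all 44 the median log2 fold change was -0.00577 in KO and -0.0355 in WT cells, against -0.022 and -0.0259 for all genes.

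Transcripts of other cell types differed between the same groups. In bulk libraries fewer cells of a type and less RNA per cell cannot be told apart. The summed level of 9 monocyte and monocyte-derived macrophage markers was 548 to 740 CPM in CD11b-high KO, 393 to 618 CPM in CD11b-low KO and 140 to 541 CPM in WT cells at 12 weeks, all 9 detected in each group. Among them Itgam, the gene of CD11b, was at 30.7 to 88.4 CPM in CD11b-high KO, 3.11 to 6.26 CPM in CD11b-low KO and 0.805 to 2.24 CPM in WT cells. Neutrophil markers summed to 353 to 455 CPM, 83.1 to 166 CPM and 61.7 to 73.2 CPM in the same order, with Ly6g at 0 in every group and the other 5 of 6 detected. Eosinophil markers summed to 321 to 1202 CPM, 125 to 683 CPM and 10.7 to 16.5 CPM, with 4, 3 and 2 of 5 detected and Epx at 0 throughout. The 7 T and NK cell markers, all detected, summed to 28.3 to 84.0 CPM, 45.4 to 107 CPM and 2.69 to 6.88 CPM.

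The 6 red cell markers, all detected, ran the other way, at 53.1 to 181 CPM, 68.6 to 147 CPM and 571 to 1309 CPM in CD11b-high KO, CD11b-low KO and WT cells at 12 weeks. They were at 45.8 to 151 CPM in KO and 1652 to 7486 CPM in WT cells at 4 weeks, where none of the 9 cholesterol genes passed the test. With age the alveolar macrophage sum was 44137 to 57099 CPM at 12 weeks against 32377 to 35800 CPM at 4 weeks in KO cells, and 31238 to 53437 CPM against 35685 to 41350.0 CPM in WT cells. Most of that sum was Chil3, at 35606 to 47689 CPM at 12 weeks and 23981 to 26700 CPM at 4 weeks in KO cells. Members of the same list differed in direction. Fabp1 was lower in the older KO cells, at 707 to 932 CPM against 1174 to 1738 CPM. So was Mrc1, at 417 to 564 CPM against 658 to 953 CPM. Pparg was higher in the older KO cells, at 432 to 526 CPM against 358 to 415 CPM. Siglecf overlapped, at 185 to 290 CPM against 232 to 324 CPM. The monocyte sum at 4 weeks was 274 to 317 CPM in KO cells, with C1qa and C1qc at 0, and 257 to 421 CPM in WT cells. The 6 dendritic cell markers summed to 28.0 to 159, 3.36 to 19.0 and 6.72 to 8.98 CPM at 12 weeks and the 9 lung epithelial markers to 71.6 to 111, 46.3 to 83.0 and 83.6 to 135 CPM, with Krt8 and Lamp3 at 0 in CD11b-low KO and Krt8 at 0 in WT cells. The 4 B cell markers, all detected, summed to at most 3.66 CPM in any library. WT replicate 1 had the lowest monocyte sum of its group, 140 CPM against 381 and 541 CPM, and the lowest alveolar macrophage sum, 31238 CPM against 53437 and 49927 CPM. In CD11b-high replicate 3, the library with high Apoe, the monocyte sum of 622 CPM lay between those of the other replicates, and the alveolar macrophage sum of 45729 CPM was below theirs. The part of these transcripts in the results on Soat1, Mylip and their companions was not tested.

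Genes whose levels followed a member most closely over the 15 libraries were named by Pearson's r of log2(CPM + 1) among 6382 genes. This is a description, since all points share their library and its group. WT replicate 1 was included, with the lowest Nr1h3, Abcg1 and Soat1 and the highest Abca1 and Mylip of all libraries. CD11b-high replicate 3 held the highest Apoe. The values of r were not computed without these libraries, so single libraries may carry much of them. Soat1 was closest to Bhlhe41, a transcription factor gene of alveolar macrophages (r = 0.964), and Plek (r = 0.962). Mylip was closest to Fpr2, a formyl peptide receptor gene (r = 0.910), and Ear2 (r = 0.900). Nr1h3 was closest to Rnh1 (r = 0.987), Npc2 to Tmem251 (r = 0.978), Abcg1 to Slc35c2 (r = 0.968), Apoe to Rab11a (r = 0.951), Npc1 to Pik3cd (r = 0.946), Nr1h2 to Hgs (r = 0.931) and Abca1 to Ubxn4 (r = 0.819). The next genes were Bcat2, Cstb, Tmem109, Rheb, Lrp1, Brat1 and Smarca5, in the same order, at 0.783 to 0.973.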

How the data were processed

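RNA of sorted alveolar macrophages was made into SMARTer libraries and sequenced, per the labels' protocols. The deposited values are raw counts per gene. Per the submitters' processing notes, the authors used STAR for alignment and featureCounts of Subread for counting. Their versions, the strand setting and the genome build are not given in the sources used here. Of 40780 rows, 270 repeated an identifier with the same counts and were dropped, which left 40510 genes. Genes passing filterByExpr (minimum count 10, minimum total 15) numbered 13284. They were fitted in edgeR 4.0.16 under R 4.3.3 with TMM scaling and the robust quasi-likelihood test, with all 15 libraries and 10 residual degrees of freedom, and p-values were adjusted by Benjamini-Hochberg at 0.05. The adjusted p-values in the text are from this fit unless DESeq2 (1.42.0), a left-out library or another setting is named. All tests are two-sided.

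Groups come from the sample descriptions and replicate numbers from the sample titles. Each library was made from pooled mice, and the labels do not say whether the CD11b-high and CD11b-low KO libraries share pools. The 9 genes and the companion and marker lists were chosen with earlier results of these data known. The text names all 9 genes, Cybb, up to 4 companion genes per list and comparison by adjusted p, and the 2 genes most like each of the 9. Values of 2 companion genes that this rule names are not reported here, though the counts include them. Libraries with equal numbers were checked for shared deviations from the group means. In the CD11b-high and CD11b-low KO cells of 12 weeks they correlated at 0.563, 0.474 and 0.15, and libraries with unequal numbers at -0.479 to 0.115. Equal numbers of CD11b-low KO and WT cells at 12 weeks, which differ in genotype, correlated at 0.469, 0.052 and 0.33. The numbers were taken as pairs between the 2 gates, and these correlations do not establish that pairing. Another alternative took them as a block over all 15 libraries, which also joins libraries that differ in genotype or age. No label gives a basis for that block. Alternatives were DESeq2 size factors, no filter on low counts, DESeq2, the compared groups alone, a replicate block and leaving out each library. Library totals without TMM were added after seeing the data. Counting precision covers counting error only.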

Additional observations from a re-analysis of the deposited data

How the results depend on the processing

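Over 819 values of the 9 genes under 22 alternatives, 26 lost a call and 13 gained one. The sign changed in 57, of which 55 were values under 1 SE in the fit over all libraries and not past the threshold. The other 2 were Abca1 with age in WT cells, at 0.33 with all libraries and -0.012 to 0.53 with 1 left out, and Apoe in CD11b-high KO over WT cells, at 1.32 and -0.66 to 1.80. For 31 named results of companion genes and Cybb, 282 of 372 values kept their call and 90 lost it. The causes were not tested.

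Without the filter on low counts the genes past the threshold numbered 1090 in place of 412 (CD11b-low KO over WT at 12 weeks), 73 in place of 13 (4 weeks), 533 in place of 92 (CD11b-high over CD11b-low KO), 1395 in place of 915 (age in KO) and 321 in place of 33 (interaction). Of the 9 genes it called 2, 1 and 1 in the first 3 of these and 1 with age in WT cells. It called 5 companion genes in the first, 1 in the third and 1 in the interaction. DESeq2 called 873, 22, 265, 1685 and 150 genes in these 5 comparisons, 2 of the 9 in the first, and 5, 1 and 1 companion genes in the first, the third and the interaction. With only the compared groups in the fit 189, 4 and 18 genes passed in the first 3, 793 in place of 1970 in CD11b-high KO over WT, 1646 with age in KO and 1123 in place of 2282 with age in WT cells. That fit called 0 of the 9 at 12 weeks and 1 with age in WT cells, and 0, 3 and 11 companion genes at 12 weeks, in CD11b-high KO over WT and with age in KO cells. With library totals 1498 genes passed with age in KO cells, and 1 of the 9 passed with age in each genotype.

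The replicate block over all 15 libraries called 1 of the 9 with age in KO cells and 66 genes in the interaction. The replicate block within the 6 KO libraries of 12 weeks called 252 genes and 1 companion gene between the gates, and changed no call of the 9 there.

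Leaving out 1 library gave 230 to 426 genes at 12 weeks, 4 to 15 at 4 weeks, 2 to 247 between the gates, 952 to 2099 in CD11b-high KO over WT, 235 to 1305 with age in KO, 1069 to 2528 with age in WT and 3 to 35 in the interaction. Of the 9 it called 0 to 1 at 12 weeks, 0 to 1 between the gates, 0 to 3 with age in KO and 0 to 4 with age in WT cells. Of the companion genes it called 0 to 3, 0 to 1, 5 to 16 and 3 to 9 at 12 weeks, between the gates, in CD11b-high KO over WT and with age in KO cells.

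Pools of mice limit n to 3 per group. Apoe, at 100 counts in its lowest library, had the widest intervals.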
